A study of Mus musculus with 3 samples.

Results

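Tumor-infiltrating pmel CD8+ T cells from mice treated with IL-2/21-Trikine were compared with those from mice treated with sIL-2. The comparison took every gene with at least 10 CPM in either library, where CPM is the UMI count of a gene added up across a library's kept cells and scaled by that library's total so that libraries of unequal depth can be compared. A UMI is a tag that counts each captured RNA molecule once. This left 7548 of 33696 genes, measured in 13299 cells under IL-2/21-Trikine and 7760 under sIL-2, together 21059 of the 30857 kept cells of the series. A kept cell had 500 to 120000 UMIs and at most 20% of them from mitochondrial genes.

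The T cells carried a transgenic T cell receptor, were marked by Thy1.1, and were transferred on day 5 after tumor injection, following lymphodepleting radiation of 6 Gy, into C57BL/6 mice bearing subcutaneous B16F10 tumors, a mouse melanoma line. Before transfer they were preconditioned with 10 nM of sIL-2, IL-2/21-Trikine or sIL-2 + IL-21. Mice then received 4 doses of 2.5 μg of cytokine, as sIL-2 for the sIL-2 group and as IL-2/21-Trikine for the IL-2/21-Trikine group, while the sIL-2 + IL-21 group was dosed with sIL-2 alone. On day 18, viable cells positive for Thy1.1 and CD8 were collected from tumors by sorting and gave 1 library per group, with the number of pooled mice not stated. The labels give no age of the mice. Preconditioning and dosing differed together between the groups compared, so their parts cannot be told apart.

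sIL-2 is an engineered IL-2 that signals through the IL-2 receptor beta chain and the common gamma chain, mainly by STAT5. IL-21 signals through its own receptor and the same gamma chain, mainly by STAT3. In IL-2/21-Trikine, sIL-2 is joined to an IL-21 variant that binds the IL-21 receptor without starting signaling by itself. The IL-21 receptor is thereby drawn to the IL-2 receptor chains.

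The libraries held 166772854 UMIs under IL-2/21-Trikine and 130200802 under sIL-2. The median UMI number per cell was 10254 and 12882.5, and cells under 2000 UMIs were 13.3% and 3.43% of cells, holding 1.03% and 0.242% of UMIs, in the same order. The libraries shared 30 cell barcodes. The 9 genes listed for T cell identity were all measured, and their log2 ratios lay between -0.28 and -0.06. Among them were *Cd3e*, *Cd8a*, *Thy1* and *Trac*, which mark T cells in general and do not set pmel cells apart. Each group was a single library, so no replicates existed and no group test was made. Intervals in brackets are exact 95% intervals for the ratio of 2 counts and cover counting error only, not the variation between mice or libraries.

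Of the 7548 genes, 205 had a log2 ratio of IL-2/21-Trikine over sIL-2 of at least 0.5 (2.72% of those tested) and 435 of at most -0.5 (5.76%), together 640 (8.48%). These limits define "higher" and "lower" below. Most genes differed little, since 4919 (65.2%) had a log2 ratio within 0.25 of 0, and the median over all genes was -0.08. Ratios were above 0 for 2869 genes and below 0 for 4679, which is the background for the list counts below. The split of the calls depended on scaling: 32.0% of called genes were higher with CPM, 43.4% with the median-of-ratios scaling and 50.8% when mitochondrial and ribosomal protein genes were left out of the total. Beyond a log2 ratio of 1 there were 11 higher genes (0.146%) and 58 lower genes (0.768%). Of the genes, 7137 reached 10 CPM in both libraries, 131 only under IL-2/21-Trikine and 280 only under sIL-2. Those that passed in a single library were tilted by that limit, with 48 of the 131 called higher and 89 of the 280 called lower. Among genes named below, *Gzmk*, *Gzmg*, *Cdkn2b*, *Trgc1*, *Socs3*, *Maf*, *Eomes* and *Neb* are examples that passed only under sIL-2. *Cenps*, *Ifi211*, *Klri2* and *Cd81* are examples that passed only under IL-2/21-Trikine. At the limit itself, *Matk* was just inside with 10.01 CPM in its higher library and *Thap1* just outside with 10.00 CPM.

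**Figure D1:**
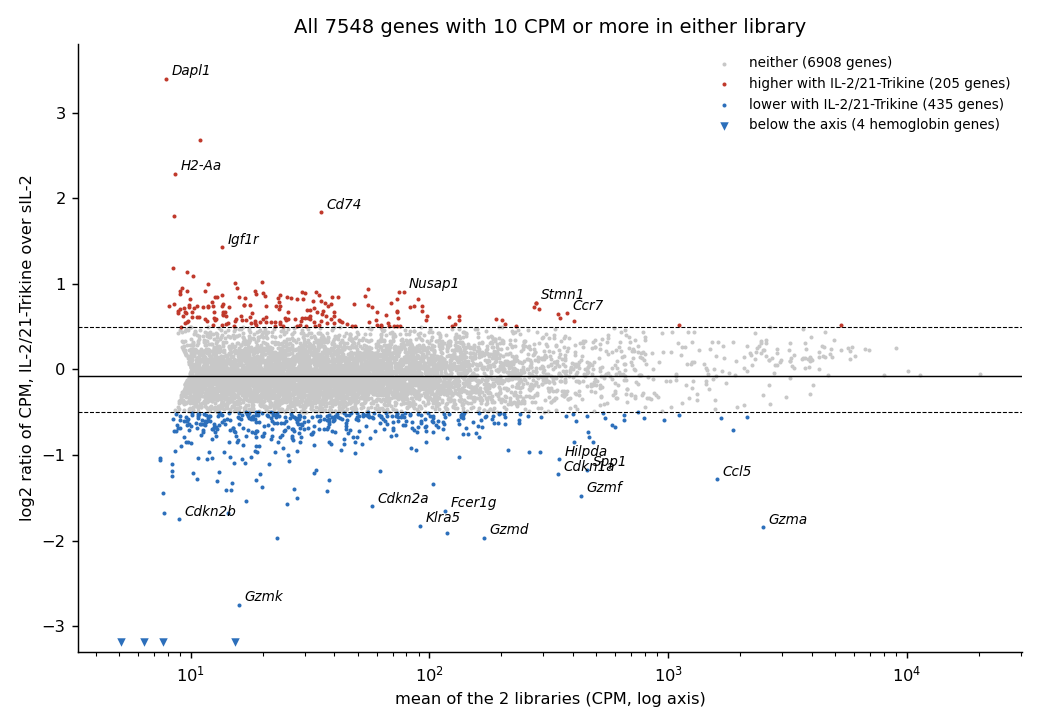
Each point is 1 of the 7548 genes, with the mean of the 2 libraries in CPM on a log axis against the log2 ratio of IL-2/21-Trikine over sIL-2. Dashed lines mark 0.5 and -0.5, the solid line the median of -0.08, and triangles the 4 hemoglobin genes below the axis; *Dapl1* lies at the top, and *Gzma* and *Ccl5* are lower genes of high level.

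Genes of DNA replication formed the clearest group on the higher side. Of the 36 measured members of the replication list, 28 were higher, 0 were lower and 36 had a log2 ratio above 0. This list, like the others, was chosen with earlier results of these data known, so its counts are a description. The list median was 0.65, against -0.08 for all genes. *Cdc6*, which loads the replicative helicase, was at 20.6 CPM under IL-2/21-Trikine, 10.7 under sIL-2 and 24.9 under sIL-2 + IL-21, a log2 ratio of 0.95 [0.86, 1.04]. *Pole*, the catalytic subunit of the leading strand polymerase, was at 24.2, 12.8 and 22.6 CPM in the same order (log2 ratio 0.92). *Lig1*, the ligase that joins Okazaki fragments, was at 69.2, 38.2 and 78.4 CPM (0.86). The clamp loader subunit *Rfc3* had a log2 ratio of 0.87, *Gins1* of the replicative helicase complex 0.88, and *Ung*, which removes uracil from DNA, 0.91. For *Cdc6*, *Pole* and *Lig1* the sIL-2 library was the low one, and the other 2 libraries were closer to each other. The summed level of the list was 2297 CPM under IL-2/21-Trikine, 1525 under sIL-2 and 2574 under sIL-2 + IL-21.

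Mitosis genes moved the same way with a smaller median. Of 35 measured members, 16 were higher and 0 lower, and the list median was 0.47. That count depended on the cells taken, with 31 higher when each cell was weighted equally, 33 in cells of 5000 to 20000 UMIs, and 12 higher and 5 lower in cells of 2000 to 5000 UMIs. *Nusap1*, a spindle microtubule protein, was at 101 CPM under IL-2/21-Trikine, 54.2 under sIL-2 and 97.0 under sIL-2 + IL-21, a log2 ratio of 0.90 [0.86, 0.94]. *Top2a*, which untangles chromosomes, was at 358, 219 and 344 CPM (log2 ratio 0.71). The spindle checkpoint kinase genes *Ttk* and *Bub1* had log2 ratios of 0.73 and 0.60. Among genes at 100 CPM or more, *Stmn1*, which destabilizes microtubules, was at 351, 205 and 368 CPM (0.78), and *Gmnn*, an inhibitor of re-replication, at 114, 64.6 and 136 CPM (0.82). Near the top of all measured genes stood the checkpoint kinase gene *Chek1* (1.01), the recombination factor *Rad51ap1* (1.02) and *Cenps*, a centromere and DNA repair protein (1.14). The replication and mitosis lists held 44 of the 205 higher genes.

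Positions of sequence motifs were read from the promoters of these genes, as given by RefSeq for the GRCm38.p6 build, from 250 bases before to 50 bases after the gene start. A promoter was found for 6054 of the 7548 genes. The E2F motif (TTTCGCGC or TTTGGCGC, on either strand) was present in 9 of 30 replication promoters, 14 of 158 promoters of higher genes (8.86%), 2.18% of those of all tested genes and 0.929% of all 27025 promoters. The windows below lie before the gene start, run 5′ to 3′ on the strand of the gene, and show the motif in capitals. They belong to the 4 replication genes with the highest ratios whose motif lies in that stretch, with genes of a single chromosome left out. They are *Rfc3* (chr5:151651209-151651242, minus strand), *Pola1* (chrX:93632262-93632317, minus), *Uhrf1* (chr17:56304104-56304159, plus) and *Mcm5* (chr8:75109332-75109387, plus).
Rfc3: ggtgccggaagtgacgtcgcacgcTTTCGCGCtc
Pola1: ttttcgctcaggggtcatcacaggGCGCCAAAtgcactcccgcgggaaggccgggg
Uhrf1: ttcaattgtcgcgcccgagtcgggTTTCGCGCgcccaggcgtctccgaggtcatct
Mcm5: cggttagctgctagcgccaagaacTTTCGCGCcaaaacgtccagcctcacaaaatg

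The CHR motif (TTTGAA on either strand), which is typical of promoters active in G2 and mitosis, was present in 23 of 30 mitosis promoters (76.7%), 29.7% of promoters of higher genes, 14.8% of those of all tested genes and 20.2% of all promoters. Windows are shown for the 3 mitosis genes with the highest ratios by the same rule, *Top2a* (chr11:99024339-99024392, minus), the spindle motor gene *Kif11* (chr19:37376339-37376381, plus) and *Cdk1* (chr10:69352954-69353007, minus), the kinase that drives entry into mitosis. A match is a description of these letters and not evidence of a bound factor.
Top2a: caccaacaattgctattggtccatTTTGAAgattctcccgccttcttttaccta
Kif11: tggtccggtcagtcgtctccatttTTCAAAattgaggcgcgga
Cdk1: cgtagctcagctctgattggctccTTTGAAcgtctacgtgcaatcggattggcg

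The list of quiescence and cell cycle inhibitors also held E2F and G1/S cyclin genes, and its members went both ways. Of 32 genes 5 were lower and 5 higher, with a median of -0.08, close to that of all genes. This median mixes both kinds and does not describe the inhibitors alone. Its 3 lowest members were inhibitors of cyclin-dependent kinases. *Cdkn1a*, which encodes p21, was at 207 CPM under IL-2/21-Trikine, 484 under sIL-2 and 274 under sIL-2 + IL-21, a log2 ratio of -1.22 [-1.24, -1.20]. *Cdkn2a*, which encodes p16 and p19, was at 28.6, 86.7 and 72.6 CPM in the same order (-1.60 [-1.65, -1.55]). *Cdkn2b*, which encodes p15, was at 4.09, 13.7 and 7.4 CPM (-1.75 [-1.88, -1.62]). For all 3 genes the sIL-2 library was the highest. The other lower members were *Btg2* (-0.59) and *Klf10* (-0.56). The higher members were the E2F family genes *E2f1*, *E2f7* and *E2f8* (0.74, 0.82 and 0.85) and the G1/S cyclin genes *Ccne1* (0.62) and *Ccne2* (0.88). Of 22 p53 target genes, 8 were lower and 1 was higher, with a median of -0.39. Besides *Cdkn1a*, the lower targets included *Plk3* (-1.0), *Trp53inp1* (-0.84), *Phlda3* (-0.71) and *Zmat3* (-0.67), and the higher one was the kinase gene *Plk2* (0.74).

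In a summed level, more cells in cycle and more RNA per cycling cell cannot be told apart, and a division of the cells by *Mki67* or *Top2a* does not separate them, since *Top2a* was itself a higher gene. Cells with a UMI of *Mki67* or *Top2a* were 52.0% of cells and held 69.5% of UMIs under IL-2/21-Trikine, and 48.5% of cells and 64.6% of UMIs under sIL-2. These cells were deeper (median 14815 against 7559 UMIs without either gene for IL-2/21-Trikine, and 18194 against 10178.5 for sIL-2), so the share also reflects depth. Within the cells holding *Mki67* or *Top2a*, the replication list had a median log2 ratio of 0.58, and within the cells holding neither it was 0.61. The mitosis list had a median of 0.37 with 6 genes higher in the former and 0.57 with 18 higher and 1 lower in the latter. The same division gave -1.16 and -1.25 for *Cdkn1a*, and -1.48 and -1.90 for *Cdkn2a*. At equal depth, with each cell thinned to 2000 UMIs, the median cell had 2 UMIs of the replication list under IL-2/21-Trikine and 1 under sIL-2, and the 90th percentile was 10 and 6 UMIs. Before thinning the medians were both 8 and the 90th percentiles 97 and 78. For *Cdkn1a* and *Cdkn2a* together, the 90th percentile after thinning was 2 UMIs under IL-2/21-Trikine and 4 under sIL-2. Before thinning it was 9 and 26. Both genes were called lower, so the direction of their sum follows from that choice. Thinning left out 1775 cells under IL-2/21-Trikine and 266 under sIL-2.

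**Figure D2:**
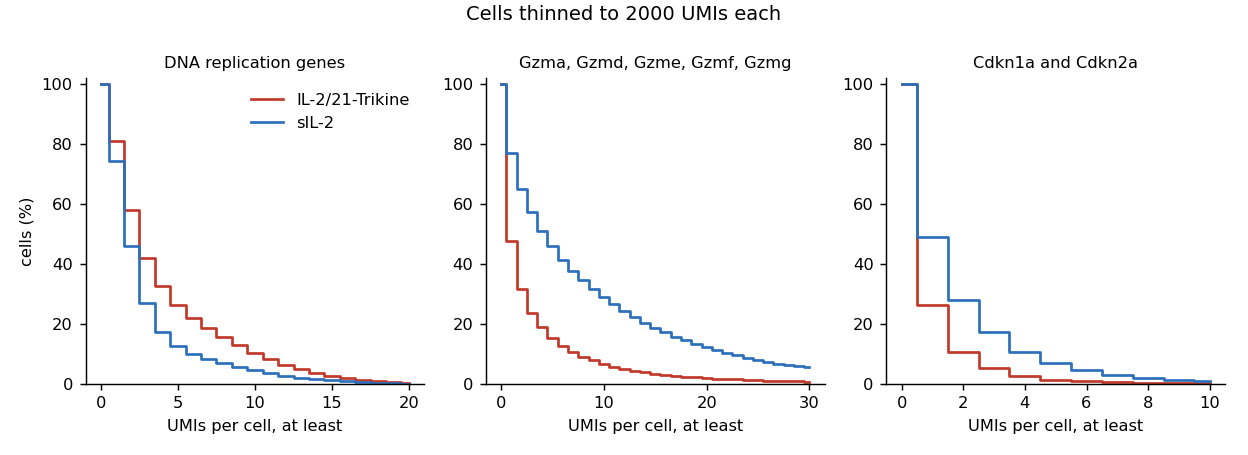
Curves give the percentage of cells (y axis) with at least a given number of UMIs (x axis) of 3 gene groups, with every cell thinned to 2000 UMIs. With IL-2/21-Trikine (red, 11524 cells) the curve for replication genes lies above that under sIL-2 (blue, 7494 cells), and the curves for *Gzma*, *Gzmd*, *Gzme*, *Gzmf* and *Gzmg* and for *Cdkn1a* with *Cdkn2a* lie below it. The granzyme and *Cdkn* groups hold only genes called lower, so the direction of their curves follows from that choice.

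Granzymes are the serine proteases of cytotoxic granules, and 6 of them were lower under IL-2/21-Trikine while *Gzmb* and *Gzmc* stayed inside the limit. Of these 6, *Gzmk* and *Gzmg* reached 10 CPM only under sIL-2 between the libraries compared, which tilts the count toward lower. *Gzma* was at 1093 CPM under IL-2/21-Trikine, 3917 under sIL-2 and 4722 under sIL-2 + IL-21, a log2 ratio of -1.84 [-1.85, -1.83]. *Gzmd* was at 68.7, 268 and 332 CPM (-1.97), *Gzme* at 49.7, 186 and 262 CPM (-1.90), and *Gzmf* at 228, 636 and 1247 CPM (-1.48). In these genes IL-2/21-Trikine was the low library and the other 2 were high. *Gzmk* was at 4.14, 27.8 and 13.6 CPM (-2.75 [-2.87, -2.63]), and *Prf1*, which encodes the pore-forming perforin, at 88.1, 179 and 272 CPM (-1.02). *Gzmb* and *Gzmc*, named after their values were seen, had log2 ratios of -0.32 and -0.42, from 2764 and 1783 CPM under IL-2/21-Trikine. Of 21 measured granule genes, 10 were lower and 0 higher, with a median of -0.42, and 7 were lower when mitochondrial and ribosomal protein genes were left out of the total. In cells of 2000 to 5000 UMIs, which numbered 795 and 215, the list median was 0.01 and that of *Gzmk* -0.22. For *Gzmg* (-1.97), 80.2% of the UMIs under IL-2/21-Trikine came from its 10 highest cells. At 2000 UMIs per cell, the median cell had 0 UMIs of *Gzma*, *Gzmd*, *Gzme*, *Gzmf* and *Gzmg* together under IL-2/21-Trikine and 4 under sIL-2, and the 90th percentile was 7 and 22. Before thinning the medians were 2 and 23. All genes of this sum were called lower, and *Gzmb* and *Gzmc* were left out, so the direction of its difference follows from that choice.

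Receptors shared with natural killer cells split as well. *Klra5*, a Ly49 receptor, was at 40.1 CPM under IL-2/21-Trikine, 142 under sIL-2 and 174 under sIL-2 + IL-21, a log2 ratio of -1.83 [-1.87, -1.79]. *Fcer1g*, the signaling adaptor of activating Fc and natural killer receptors, was at 56.1, 176 and 189 CPM (-1.65 [-1.68, -1.61]). *Klre1* was at 85.9, 150 and 100 CPM (-0.80) and *Klri2*, its partner family, at 14.1, 8.50 and 10.7 CPM (0.73). Of the 10 measured genes of this list 3 were lower and 1 higher. The higher one, *Klri2*, reached 10 CPM only under IL-2/21-Trikine between the libraries compared, which tilts it toward higher. The rest of the list lay between -0.39 and 0.21. Constant segments of the T cell receptor gamma locus were also lower, with *Trgc1* at -1.68, *Trgc2* at -1.53 and *Trgc4* at -1.18. *Trgc1* was at 3.66 CPM under IL-2/21-Trikine, 11.7 under sIL-2 and 4.36 under sIL-2 + IL-21. Unlike *Klra5*, it was thus high only under sIL-2, the only library where it reached 10 CPM. That limit tilts such genes toward lower. *Trdc* of the delta locus was at 50.8 CPM under IL-2/21-Trikine and 54.7 CPM under sIL-2 (-0.11). Near-identical gamma constant segments can share reads, so their individual levels are uncertain.

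**Figure D3:**
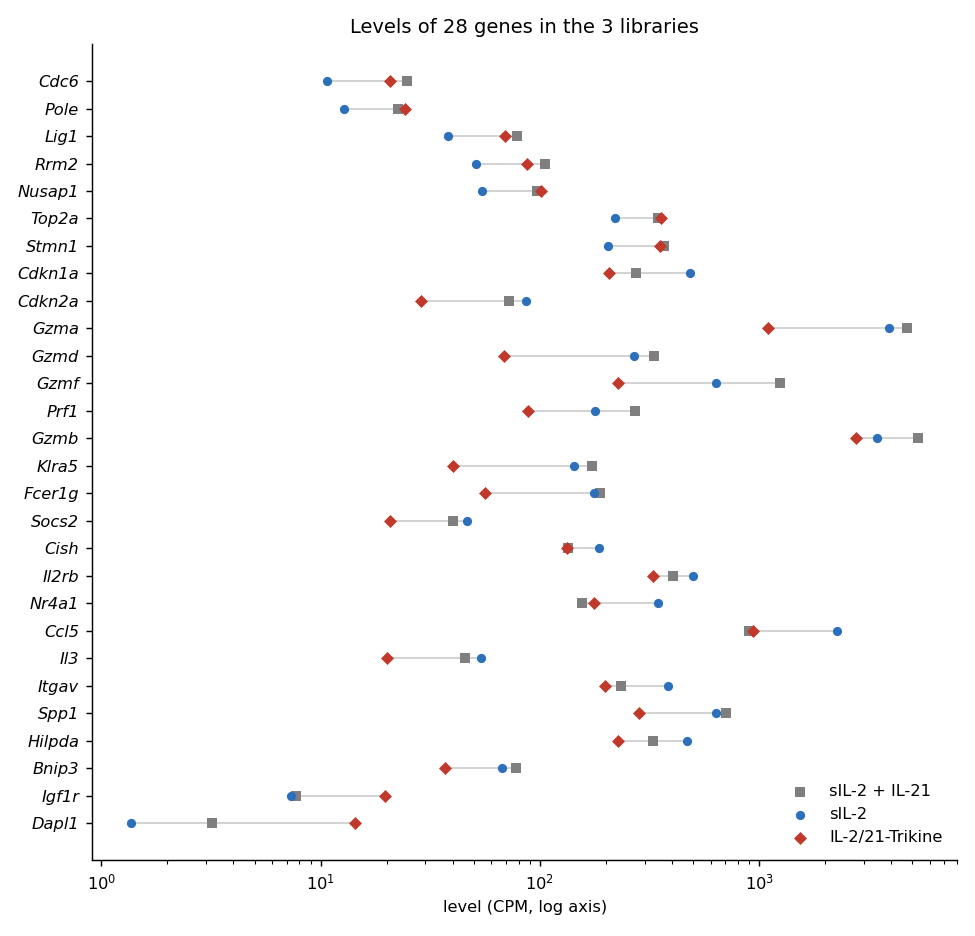
Levels of 28 genes in CPM (log axis) in each of the 3 libraries, 1 point per library, with no error bar because each group was 1 library. Replication and mitosis genes are lowest under sIL-2, *Gzma*, *Gzmd*, *Klra5* and *Fcer1g* are lowest under IL-2/21-Trikine, and *Igf1r* and *Dapl1* are highest under IL-2/21-Trikine.

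Genes of the JAK-STAT pathway and its feedback were described as a list. Their RNA was read on day 18, after the last dose, and STAT phosphorylation was not measured in these cells. The levels therefore do not show how the cytokine signals were passed on. Of 31 measured members 4 were lower and 1 was higher, with a median of -0.25. The feedback inhibitor *Socs2* was at 20.6 CPM under IL-2/21-Trikine, 46.5 under sIL-2 and 40.2 under sIL-2 + IL-21, a log2 ratio of -1.17 [-1.23, -1.11]. *Socs3*, an inhibitor induced by STAT3, was at 6.97, 12.5 and 7.81 CPM (-0.85 [-0.96, -0.74]). The kinase gene *Jak2* was at 108, 182 and 81.2 CPM (-0.75). The paired survival kinases divided, with *Pim1* at -0.54 and *Pim2* at 0.52. *Cish*, a STAT5 target that restrains receptor signaling and is named here after its value was seen, was at 133, 185 and 135 CPM (-0.48). Among the receptors, the IL-2 receptor beta chain gene *Il2rb* was at 327, 497 and 404 CPM (-0.60) and the alpha chain gene *Il2ra* at 285, 394 and 314 CPM (-0.47). The common gamma chain gene *Il2rg* (-0.08) and *Il21r* (-0.27) differed less, and *Il7r* was at 269, 223 and 267 CPM (0.27). Only *Il2rb* of these 7 receptor genes was past the limit.

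The STAT motif TTCNNNGAA was found in 3 of 24 promoters of the JAK-STAT list (12.5%), in 9.14% of promoters of lower genes, 5.70% of those of higher genes, 8.09% of those of all tested genes and 9.55% of all promoters. It lay before the gene start in *Socs3* (chr11:117969488-117969544, minus) and in the repressor gene *Bcl6* (chr16:23988938-23988994, minus), which had a log2 ratio of -0.36.
Socs3: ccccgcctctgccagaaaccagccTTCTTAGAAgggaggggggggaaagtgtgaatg
Bcl6: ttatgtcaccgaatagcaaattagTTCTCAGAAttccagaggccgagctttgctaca

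Of 17 early genes of antigen signaling 7 were lower under IL-2/21-Trikine and 1 was higher (median -0.46), and 5 were lower with mitochondrial and ribosomal protein genes left out of the total. *Nr4a1*, an orphan nuclear receptor induced within hours of T cell receptor engagement, was at 177 CPM under IL-2/21-Trikine, 346 under sIL-2 and 155 under sIL-2 + IL-21, a log2 ratio of -0.97 [-0.99, -0.95]. *Dusp5*, an ERK phosphatase, was at 289, 520 and 298 CPM (-0.85), and *Dusp2* at -0.74. Here sIL-2 was the high library and the other 2 were close. *Egr3* (-0.64) and *Nr4a3* (-0.63) were also lower, and *Spry2*, a brake on receptor tyrosine kinase signaling, was higher (0.72). All 33 genes of the T cell receptor complex and its signaling had ratios below 0, with a median of -0.31. All 9 T cell identity genes were below 0 too (median -0.23), as were 4679 of all 7548 genes. These are sign counts in CPM, and the highest of the 33 was at -0.033. Leaving mitochondrial and ribosomal protein genes out of the total moves every gene up, and members nearest 0 then pass it. Of the 33 genes, 5 were lower, or 1 under that other scaling. Among the 5 were the transcription factor genes *Nfatc1* (-0.60) and *Nfatc2* (-0.56) and the kinase genes *Fyn* (-0.55) and *Zap70* (-0.54). All 20 NF-kB pathway genes were below 0 in CPM (median -0.34, highest -0.035), with 5 lower, or 3 under the other scaling. Among the 5 were *Nfkb1* (-0.56) and the inhibitors *Nfkbid* (-0.67) and *Nfkbiz* (-0.59). Of 16 AP-1, BATF and IRF factors 5 were lower, or 3 under the other scaling, with a median of -0.36. They included *Maf*, which was at 8.50 CPM under IL-2/21-Trikine, 21.4 under sIL-2 and 12.5 under sIL-2 + IL-21 (-1.33), *Fosl2* (-0.64) and *Junb* (-0.53).

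A loose form of the AP-1 motif was searched, TGANTCA with any base at N. It was present in 47 of 339 promoters of lower genes (13.9%) and 7 of 158 of higher genes (4.43%). Among all tested genes 5.76% of promoters held it, and among all promoters 8.97%. It is shown for the 3 lower genes with the lowest ratios that hold it before the gene start, which are *Havcr2* (chr11:46454707-46454761, plus; -1.33), an inhibitory receptor gene, *Mirt1* (chr19:53464906-53464960, minus; -1.22), a long noncoding RNA, and *Prdm1* (chr10:44458766-44458820, minus; -1.20), which encodes the effector regulator Blimp-1. Genes of a single chromosome were left out of this choice.
Havcr2: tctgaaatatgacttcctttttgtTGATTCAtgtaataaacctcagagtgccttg
Mirt1: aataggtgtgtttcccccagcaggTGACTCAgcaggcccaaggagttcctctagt
Prdm1: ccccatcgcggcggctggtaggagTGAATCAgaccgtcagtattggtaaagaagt

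Secreted products of T cells followed, with 6 of 13 measured cytokine genes lower and 0 higher (median -0.49), or 4 lower with mitochondrial and ribosomal protein genes left out of the total. *Il3* was at 20.1 CPM under IL-2/21-Trikine, 54.0 under sIL-2 and 45.5 under sIL-2 + IL-21, a log2 ratio of -1.42. *Il2*, the T cell growth factor, was at 20.5, 36.7 and 23.3 CPM (-0.84), *Csf2*, which encodes GM-CSF, at 342, 590 and 620 CPM (-0.79), and *Ifng* at 617, 875 and 665 CPM (-0.50). Among 7 chemokine genes 1 was lower, *Ccl5*, at 935, 2274 and 895 CPM (-1.28 [-1.29, -1.27]). *Xcl1*, which attracts cross-presenting dendritic cells, was at 4281, 4274 and 2911 CPM (0.00). In cells of 2000 to 5000 UMIs, *Ccl5* was at 0.08, and 4 of the 7 chemokine genes were higher and 0 lower, with a median of 0.52 in place of -0.29. *Spp1*, which encodes osteopontin, was at 282 CPM under IL-2/21-Trikine, 635 under sIL-2 and 704 under sIL-2 + IL-21 (-1.17), and at 0.23 in those shallow cells.

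Adhesion and inhibitory receptor genes were mostly on the lower side. Of 25 integrin and residency genes 8 were lower and 1 was higher (median -0.38). *Itga1*, the collagen-binding CD49a chain, was at 32.8 CPM under IL-2/21-Trikine, 64.3 under sIL-2 and 26.6 under sIL-2 + IL-21 (-0.97). *Itgav*, the alpha V chain, was at 198, 386 and 234 CPM (-0.96), and the tetraspanin gene *Cd81* was the higher one, at 12.3, 7.43 and 25.2 CPM (0.73). Between the libraries compared, *Cd81* reached 10 CPM only under IL-2/21-Trikine, which tilts it toward higher. Of 17 genes of the inhibitory receptor list, which also holds the ectoenzyme gene *Nt5e*, 9 were lower and 0 higher (median -0.51). With mitochondrial and ribosomal protein genes left out of the total, 8 were lower and 1 was higher. Among the 9 were *Cd244a* (-0.89), *Nt5e* (-0.71) and *Vsir* (-0.69), and *Btla* was at 0.47. Of 9 TGF-beta response genes all were below 0, and *Pmepa1* (-0.74) and *Smad7* (-0.61) were lower.

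**Figure D4:**
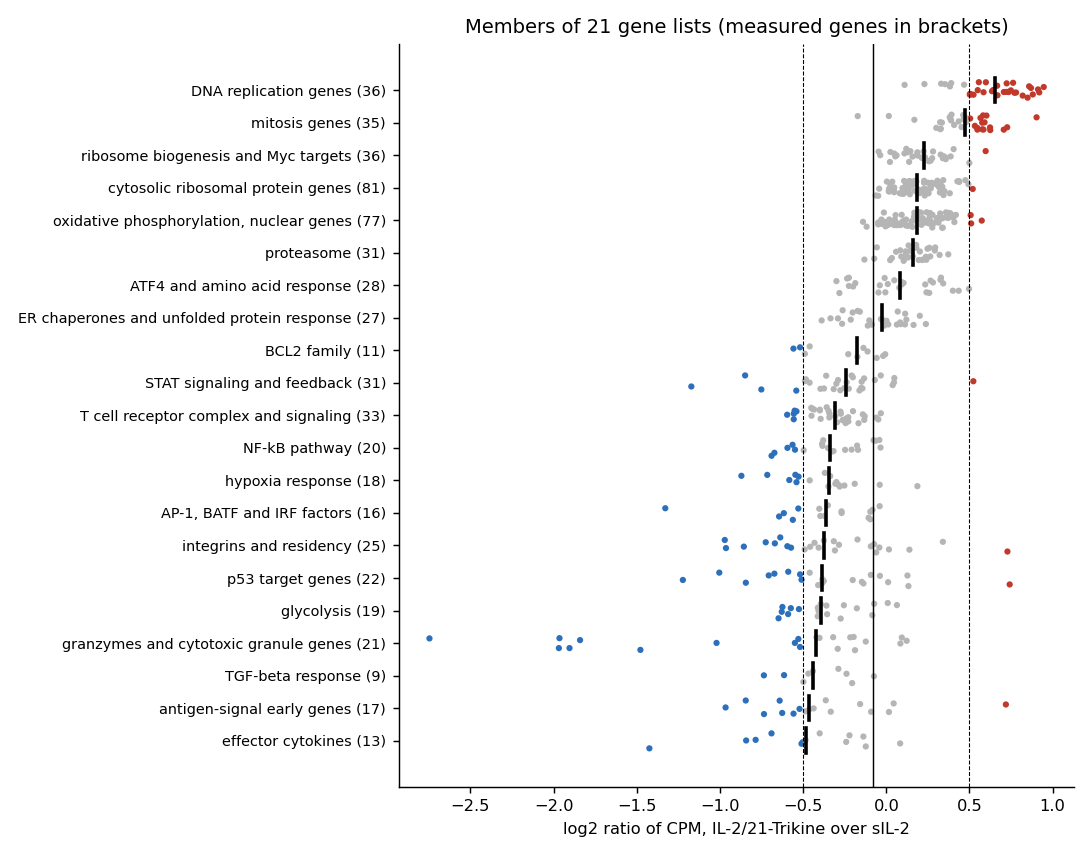
Log2 ratios of IL-2/21-Trikine over sIL-2 (x axis) for the members of 21 gene lists, 1 point per measured gene, red where higher and blue where lower, with a black bar at the list median. The solid line is the median of all genes (-0.08) and the dashed lines are the limits of 0.5 and -0.5; among the lists shown, which leave out MHC class II and inhibitory receptors, medians run from 0.65 for replication to -0.49 for cytokines.

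Of 19 glycolysis genes 6 were lower and 0 higher (median -0.39). The lactate exporter gene *Slc16a3* was at 16.4 CPM under IL-2/21-Trikine, 25.7 under sIL-2 and 22.3 under sIL-2 + IL-21 (-0.65), and *Eno1*, which encodes enolase, at 146, 226 and 209 CPM (-0.62). The glucose transporter genes *Slc2a3* and *Slc2a1* were at -0.59 and -0.57. *Ldha*, named after its value was seen, was at 865, 860 and 1071 CPM (0.01). Of 18 hypoxia response genes 6 were lower (median -0.34), or 3 with mitochondrial and ribosomal protein genes left out of the total. They included *Bnip3*, a mitophagy receptor gene, at 36.8, 67.3 and 77.5 CPM (-0.87), and *Mxi1* (-0.72). *Hilpda*, a hypoxia-induced lipid droplet protein that was no list member, was at 227, 469 and 329 CPM (-1.05 [-1.07, -1.03]), and at -0.14 in cells of 2000 to 5000 UMIs. In lipid handling, the fatty acid binding protein gene *Fabp5* was at 117, 70.0 and 196 CPM (0.74), while the lipid droplet coat gene *Plin2* (-0.74) and *Cpt1a* (-0.60), which admits fatty acids to mitochondria, were lower.

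The letters ACGTG, the core of the site bound by hypoxia-inducible factors and also part of other motifs, were in 13 of 18 glycolysis promoters (72.2%) and 11 of 14 hypoxia promoters (78.6%), against 31.3% of those of all tested genes and 21.8% of all promoters. Among called genes, 105 of 339 lower and 44 of 158 higher promoters held them, so the lower genes as a whole were close to all tested genes. Windows are given for *Slc16a3* (chr11:120949016-120949066, plus), *Slc2a1* (chr4:119108685-119108737, plus) and *Aldoa* (chr7:126799352-126799404, minus; -0.41), the glycolysis genes with the lowest ratios that hold the letters before the gene start. Genes of a single chromosome were left out here too.
Slc16a3: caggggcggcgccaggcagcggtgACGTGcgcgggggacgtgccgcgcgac
Slc2a1: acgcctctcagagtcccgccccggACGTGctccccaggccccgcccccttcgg
Aldoa: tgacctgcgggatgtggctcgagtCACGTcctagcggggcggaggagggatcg

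Nuclear genes of oxidative phosphorylation were slightly above 0 as a group. Of 77 members 67 had a ratio above 0 and the median was 0.18, while 3 were higher (3.90%, against 2.72% of all genes) and 0 lower. Over all 7548 genes, 2869 were above 0. The complex III subunit gene *Uqcr10* was at 242 CPM under IL-2/21-Trikine, 162 under sIL-2 and 249 under sIL-2 + IL-21 (0.57). Cytosolic ribosomal protein genes had a similar shift, with 78 of 81 above 0, 1 higher and a median of 0.19. They made up 27.2% of all UMIs under IL-2/21-Trikine, 23.6% under sIL-2 and 25.2% under sIL-2 + IL-21. Of 36 ribosome biogenesis genes 34 were above 0 (median 0.23) and 1 was higher, the nucleolar *Nop10* (0.60). Of 31 proteasome genes 28 were above 0 (median 0.16), and 0 were higher. In these 4 lists single genes stayed mostly inside the limit of 0.5, and the medians kept their sign under every scaling and choice of cells tried.

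*Dapl1* had the highest log2 ratio of all measured genes, and *Igf1r*, *Nrn1* and *Ccr7* were higher by less. *Dapl1* was at 14.4 CPM under IL-2/21-Trikine, 1.37 under sIL-2 and 3.20 under sIL-2 + IL-21, a log2 ratio of 3.39 [3.17, 3.62]. *Igf1r*, the receptor for insulin-like growth factor 1, was at 19.7, 7.34 and 7.71 CPM (1.43 [1.32, 1.53]). *Nrn1*, which encodes the membrane-anchored protein neuritin, was at 72.7, 37.9 and 38.5 CPM (0.94), and the lymph node homing receptor gene *Ccr7* at 462, 294 and 242 CPM (0.66). For these genes IL-2/21-Trikine was the high library and the other 2 were lower. Between the libraries compared, *Dapl1* and *Igf1r* reached 10 CPM only under IL-2/21-Trikine, a limit that tilts such genes toward higher. *Dapl1* was at 4.49 without the 10 highest cells of each library, which held 59.6% of its UMIs under sIL-2, and at 0.46 in cells of 2000 to 5000 UMIs. The costimulatory ligand gene *Cd70* was at 20.5, 11.4 and 36.0 CPM (0.84).

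Of 10 listed MHC class II genes 6 were measured, and 3 of these were higher. Of the 3, *H2-Aa* and *H2-Eb1* reached 10 CPM only under IL-2/21-Trikine of the 2 libraries compared. That limit tilts the count and the list median toward higher. *Cd74*, the invariant chain, was at 55.1 CPM under IL-2/21-Trikine, 15.4 under sIL-2 and 35.0 under sIL-2 + IL-21 (1.84 [1.77, 1.91]), *H2-Aa* at 14.3, 2.94 and 4.36 CPM (2.28), and *H2-Eb1* at 13.1, 3.79 and 4.68 CPM (1.79). The 10 highest cells held 53.3% and 52.0% of the *H2-Aa* UMIs under IL-2/21-Trikine and sIL-2, and 10.5% and 16.3% of those of *Cd74*. Without the 10 highest cells the ratios were 2.24 and 1.93, and in cells of 2000 to 5000 UMIs they were -1.89 and 0.60. Macrophage genes were low in both libraries, with more CPM under IL-2/21-Trikine than under sIL-2 for those given here, the direction of the class II genes. *C1qa* was at 0.606 and 0.154 CPM, *Lyz2* at 5.37 and 3.17 CPM and *Csf1r* at 0.372 and 0.192 CPM. The 20 listed myeloid markers summed to 639 CPM under IL-2/21-Trikine and 674 CPM under sIL-2. Most of it came from *Ly6c2*, which T cells also express. Of the 20, 3 were measured, all with ratios below 0, and 1 of them was lower. The 3 measured of 10 dendritic cell markers also had ratios below 0, with 1 lower. Among 10 B cell markers *Pax5* was at 0 CPM in both libraries and *Ighm* was at 29.8 and 17.3 CPM (0.79). Without the cells holding UMIs of at least 2 of 10 myeloid genes, which left 13196 and 7621 cells, *Cd74* was at 1.70, *H2-Aa* at 1.66 and *H2-Eb1* at 1.13, and the median of the 6 class II genes was 0.67 in place of 1.08. All 3 genes stayed higher without those cells. That step was not among those planned. It removed cells by myeloid genes only and would leave B cells or dendritic cells in place. Whether other carried-over cells held these transcripts was not tested.

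The lowest ratios of all belonged to 4 hemoglobin genes, led by *Hbb-bs* at 0.0120 CPM under IL-2/21-Trikine and 30.5 CPM under sIL-2 (-11.31 [-14.36, -9.46], from 2 UMIs against 3971). The 10 highest cells held 98.2% of the *Hbb-bs* UMIs under sIL-2, and 1 cell in each library had UMIs of 2 or more erythroid markers. The size of the ratio thus rests on a few cells, which the counting interval does not show. Cells with a *Hbb-bs* UMI were 80 (1.03%) under sIL-2 and 2 (0.015%) under IL-2/21-Trikine. The source of these UMIs was not tested. None of the 12 melanoma markers reached 10 CPM, and their levels summed to 17.8 CPM under IL-2/21-Trikine and 15.4 CPM under sIL-2. Of 12 fibroblast and endothelial markers 1 was measured, *Pecam1*, at 39.2 and 42.9 CPM.

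**Figure D5:**
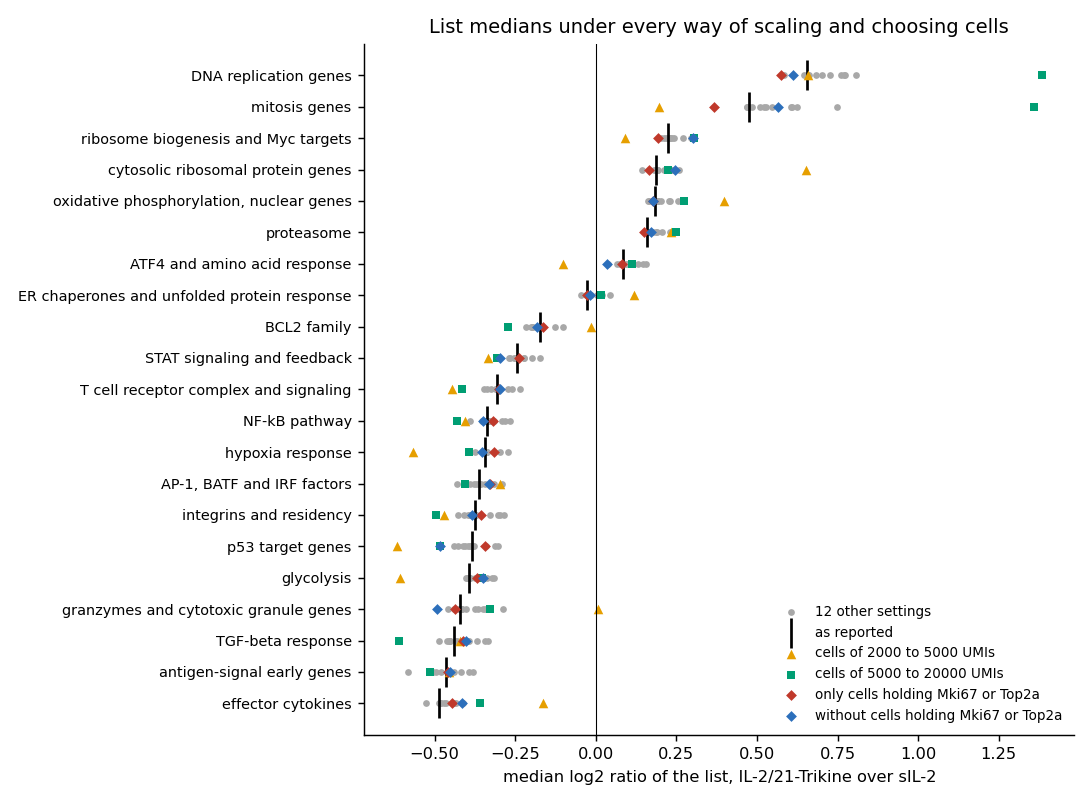
Median log2 ratio (x axis) of the same 21 lists under every way of scaling the counts and choosing the cells, with a black bar for the values reported here. The replication and mitosis medians reach 1.38 and 1.36 in cells of 5000 to 20000 UMIs, and the granule gene median reaches 0.01 in cells of 2000 to 5000 UMIs.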

How the data were processed

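Files deposited by the authors hold UMI counts of each gene in each cell, not normalized, from droplet libraries read with Cell Ranger 9.0.0 with intronic reads included. The labels list build mm10, while the methods give GRCm39. Cells with 500 to 120000 UMIs and at most 20% mitochondrial UMIs were kept, no doublet caller was run, counts were summed per library and scaled to CPM, and genes reaching 10 CPM in at least 1 library were compared by the log2 ratio with an exact conditional 95% interval. With 1 library per group no test was possible, and intervals cover counting error only. A log2 ratio of 0.5 in either direction was the limit for a call. Genes were named by a rule: the 15 highest and 15 lowest ratios, the 12 highest and 12 lowest among genes at 100 CPM or more, both without V, D or J segments, and up to 6 members with the largest absolute ratio in each gene list. The text gives part of these, some items are not reported here, and others are said to be named after their values were seen or shown for their sequence. The members and the gene lists were chosen with earlier results of these data known. Promoters came from RefSeq (GRCm38.p6) and were searched for 9 motifs on both strands, of which 5 are reported with sequences. The windows left out genes without a promoter entry and those of 1 chromosome, so a gene with a more extreme ratio can be missing. In thinned cells 2000 UMIs were drawn per cell with a fixed seed. The steps were checked on simulated counts. Alternatives covered scaling, limits on genes and cells, depth, cell cycle and other cell types. Calculations used Python 3.11.15, numpy 2.4.6, scipy 1.17.1, pandas 2.3.3 and matplotlib 3.10.9.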

Additional observations from a re-analysis of the deposited data

How the results depend on the processing

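No paired analysis was possible because each group had 1 library. The number of higher genes, 205 as reported, was 350 with mitochondrial and ribosomal protein genes left out of the total, 319 with each cell weighted equally, 110 without cells holding *Mki67* or *Top2a*, 368 in cells of 5000 to 20000 UMIs (lower genes 694), and 778 in cells of 2000 to 5000 UMIs (lower genes 3145). This last setting was added after seeing the data and rests on 215 cells under sIL-2. Other settings were also not planned: cells of more than 20000 UMIs and only cells holding *Mki67* or *Top2a*. The removal of cells with 2 of 10 myeloid genes, or of the 10 highest cells of each gene, was not planned either. With at least 1 CPM in either library the counts were 424 higher and 903 lower, and with at least 50 CPM they were 59 and 179, as these limits test 11451 and 3174 genes. In cells of 2000 to 5000 UMIs, 31 of the 205 higher and 29 of the 435 lower genes turned direction. Among the genes named for the highest or lowest ratios these were *Ccl5* (0.081), *Spp1* (0.23), *Prf1* (0.0069), *Pbk* (-0.67), *Ifi211* (-0.24), *H2-Eb1* (-0.24) and *H2-Aa* (-1.89). The medians of the MHC class II genes (-0.077) and of the B cell markers (-0.15), of which 1 was measured, turned as well. Medians that were inside the limit also turned there, among them the chemokine ligands (0.52), T cell identity genes (0.36), actin and motility genes (0.20), killer lectin-like receptors (0.15) and mitochondrially encoded genes (-0.57). The cause was not tested. No other setting turned a gene named for its highest or lowest ratio, or a list median past the limit of 0.5. Over all called genes, 1 lower gene turned in some other settings, such as cells of 5000 to 20000 UMIs. List members named in the text were not checked one by one here. With equal weight of cells, 198 of the 205 higher and 347 of the 435 lower genes remained past the limit. Median-of-ratios scaling moves every gene up by 1 constant and left 338 of the 435 lower genes past it. With 1 library per group, treatment and the making of the library cannot be told apart for any value given here. Depth differed between the libraries, and the counting interval of a measured gene had a median width of 0.11 log2 units.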

Other observations

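Several further lists were measured. Of 25 type I interferon genes 9 were lower under IL-2/21-Trikine and all 25 had a ratio below 0 in CPM (median -0.38, highest -0.041). The other scalings move every gene up, and members nearest 0 then pass it. *Rsad2* was at 11.8 CPM under IL-2/21-Trikine, 23.9 under sIL-2 and 3.7 under sIL-2 + IL-21 (-1.03). Within the interferon-induced GTPase and IFI200 genes the members differed, with *Ifi211* higher (1.09) and *Slfn5* (-0.94) and *Iigp1* (-0.77) lower. Of 19 regulators of G protein signaling 5 were lower, among them *Rgs16*, which damps chemokine receptor signals, at 147, 282 and 200 CPM (-0.94). Of 26 differentiation transcription factors 4 were lower and 1 higher. *Eomes* was at 4.95, 11.8 and 2.64 CPM (-1.25) and *Rora* was the higher one (0.57). Of 28 chromatin genes 24 were inside the limit. The demethylase genes *Kdm6b* (-0.79) and *Kdm5b* (-0.74) were lower, and *Dnmt1* (0.51), the maintenance DNA methyltransferase, and *Hmgb2* (0.52) were higher.

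Some lists had a median within 0.15 of 0 in CPM, where the median of all genes was -0.08. The 27 genes of ER chaperones and the unfolded protein response had a median of -0.03, which was 0.02 with median-of-ratios scaling, and 0 were called. The 28 genes of the ATF4 and amino acid response had a median of 0.09 with 0 called, and the 24 antioxidant genes 0.06 with 0 called. The 20 heat shock chaperone genes had a median of 0.09, with *Hspa1a* at 14.5 CPM under IL-2/21-Trikine and 20.6 CPM under sIL-2 (-0.51) as the 1 gene called. *Neb*, the gene of the muscle protein nebulin, was at 6.84 CPM under IL-2/21-Trikine, 21.8 under sIL-2 and 29.5 under sIL-2 + IL-21 (-1.67).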
